A study of Mus musculus with 7 samples.

Results

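The immediate early genes examined here were *Fos*, *Fosb*, *Fosl2*, *Jun*, *Junb*, *Jund*, *Egr1*, *Atf3* and *Ier2*, 9 of the 21938 protein-coding genes of the GENCODE M21 annotation of mm10. Chromatin occupancy at these genes was read from 6 lists of ChIP-seq peaks, 2 replicates each for the clock activator BMAL1, the clock repressor REV-ERBα and RNA polymerase II (RNAP2). A peak belonged to a gene when it overlapped the gene body or lay within 10 kb of any annotated transcription start site (TSS), which gave 88 peaks out of 527912. All samples were gastrocnemius muscle of wild-type male C57BL/6J mice aged 5 months, kept under equal periods of light and dark on standard chow. BMAL1 and RNAP2 were mapped at Zeitgeber time (ZT) 4 and REV-ERBα, with 2 antibodies mixed, at ZT 8, so that factor and time cannot be told apart. The authors called the peaks of every sample separately, with input DNA as background and a p-value of 0.05 or less. A −log10 p (the evidence for a peak at its summit) and a fold enrichment over input came with each peak, but no read count, so the depth behind a single peak is unknown. Peaks of both replicates that overlapped by at least 1 bp made a region, and the strength of a region is the lower −log10 p of its replicates. Each statement is a description of these lists, and no test across animals was made.

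Immediate early genes are transcribed rapidly after a stimulus, without need for new protein synthesis. Their promoters are bound by serum response factor at CArG boxes and by CREB-family proteins at cAMP response elements (CREs), which are targets of growth factor, calcium and stress signalling. FOS and JUN proteins pair to form the transcription factor AP-1, and in skeletal muscle several of these genes respond to contraction. REV-ERBα is a nuclear receptor without an activation function that recruits a corepressor complex, and BMAL1 pairs with CLOCK at E-boxes to activate transcription.

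REV-ERBα regions present in both replicates were found at 5 of the 9 genes, *Fos*, *Fosl2*, *Junb*, *Jund* and *Egr1*, whereas 4.44% of all protein-coding genes had such a region. The sequences under the summits are shown for *Fos*, *Fosl2* and *Junb*, from 50 bases before the farther of the replicate summits to 50 bases after the nearer, because these genes had the 3 strongest REV-ERBα regions of the group. Upstream bases of *Jun* and *Ier2* are set beside them, because both promoters carried strong RNAP2 regions and no REV-ERBα region. All are from the GRCm38.p6 genome on the strand of the gene, 5′ to 3′, with base −1 next to the TSS, and all lie upstream of the first GENCODE base of the gene. Capitals mark the CArG box and the CRE core (TGACG, read on either strand) of *Fos*, the CRE core of *Fosl2*, the GC box (GGGCGG, on the reverse strand) and CCAAT box of *Jun*, and the full CRE (TGACGTCA) of *Ier2*. The *Junb* stretch has no capitals, since it holds neither CCAAT nor a CRE core.
Fos −329 to −117, chr12:85473561-85473773, plus strand: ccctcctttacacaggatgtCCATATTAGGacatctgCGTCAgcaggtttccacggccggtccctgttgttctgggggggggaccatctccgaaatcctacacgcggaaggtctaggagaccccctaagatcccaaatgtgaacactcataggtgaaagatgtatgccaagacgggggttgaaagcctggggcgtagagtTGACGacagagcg
Fosl2 −227 to −80, chr5:32135574-32135721, plus strand: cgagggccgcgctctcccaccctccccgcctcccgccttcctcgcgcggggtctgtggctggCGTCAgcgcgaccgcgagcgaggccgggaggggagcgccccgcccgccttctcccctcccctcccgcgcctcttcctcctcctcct
Junb −1312 to −1197, chr8:84979915-84980030, minus strand: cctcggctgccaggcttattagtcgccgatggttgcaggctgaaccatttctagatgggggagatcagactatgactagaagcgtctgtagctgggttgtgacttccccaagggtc
Jun −100 to −1, chr4:95052223-95052322, minus strand: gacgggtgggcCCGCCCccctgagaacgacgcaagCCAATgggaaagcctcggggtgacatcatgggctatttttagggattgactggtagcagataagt
Ier2 −100 to −1, chr8:84662853-84662952, minus strand: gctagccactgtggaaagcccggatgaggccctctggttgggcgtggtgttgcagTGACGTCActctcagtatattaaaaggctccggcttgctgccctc

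The tissue label was checked with markers. RNAP2 regions in both replicates were present at 10 of 10 muscle fibre genes, with strengths from 10.26 to 46.84 and a median of 31.07. Among markers of other cells, an RNAP2 region was present at 1 of 4 for leukocytes, 1 of 4 for endothelium, 3 of 4 for fibro-adipogenic cells, 1 of 4 for adipocytes, 1 of 3 for satellite cells, 1 of 4 for Schwann cells and 0 of 3 for hepatocytes. Of all genes, 41.1% had an RNAP2 region. The leukocyte region had summits at −6162 and −6236 bp from a TSS of its marker. Those of endothelium lay at 44811 and 44653 bp, and those of satellite cells at −8744 and −8462 bp. The lists differ in length, from 28881 peaks in REV-ERBα replicate 1 to 177669 in BMAL1 replicate 2. The list of replicate 2 was 5.11 times as long as that of replicate 1 for BMAL1, 1.92 times for RNAP2 and 1.04 times for REV-ERBα.

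Among the FOS-family genes, which encode the AP-1 subunits that pair with JUN proteins, *Fos* had the strongest REV-ERBα region of the 9 genes. The promoter region at chr12:85473372-85474099 reached −log10 p values of 14.54 (replicate 1) and 26.88 (replicate 2). Its fold enrichment was 5.11 and 8.13, and its summits lay at −167 and −279 bp from the TSS. By strength it ranked 104 of 1263 REV-ERBα regions, and its peaks lay above 99.6% and 99.8% of the peaks of their lists. The CArG box printed above spans bases −309 to −300, upstream of both summits and within 100 bp of that of replicate 2. CRE cores lie at −292 to −288 and −129 to −125. A further core, with its first base at −340, lies outside the printed stretch.

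A weaker REV-ERBα region was present farther upstream of *Fos*, at chr12:85471977-85472737. Its −log10 p was 2.72 and 1.94 in replicates 1 and 2, and its rank was 1006. The summits at −1576 and −1240 bp were 336 bp apart, against a median of 186 bp over all REV-ERBα regions. This upstream region overlapped an RNAP2 region with a −log10 p of 4.32 and 8.09. Both REV-ERBα regions of *Fos*, mapped at ZT 8, thus overlapped RNAP2 regions mapped at ZT 4, the nearer one the stronger of these.

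*Fosl2*, which encodes the FOS-family subunit FRA-2, had 1 REV-ERBα region at chr5:32135174-32135896. The −log10 p was 5.45 and 10.13 and the fold enrichment 3.08 and 4.42, higher in replicate 2 as at *Fos*. The summits lay at −130 and −177 bp from the first GENCODE TSS, and the CRE core lies at −165 to −161, between them. RefSeq places the *Fosl2* start 671 bp downstream of that TSS, which would put the summits farther upstream. *Fosb* had no REV-ERBα peak in either list, and the nearest region in both replicates had its summit 18.2 kb away, at *Rtn2*.

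Among the JUN-family genes, whose products pair with FOS proteins or with each other, *Junb* had a region at chr8:84979664-84980233 with nearly equal replicates, at a −log10 p of 11.48 and 10.82 (fold enrichment 5.01 and 5.03). Its summits, at −1262 and −1247 bp, were 15 bp apart, and the region ranked 125. It was the only one of the promoter-proximal REV-ERBα regions of the group that overlapped no RNAP2 region, although RNAP2 replicate 1 alone had a peak there with a −log10 p of 3.15. A further REV-ERBα peak, at −208 bp from the *Junb* TSS, was listed in replicate 2 alone with a −log10 p of 2.81.

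*Jund*, which encodes the JUN protein that is broadly present in resting cells, had a weak REV-ERBα region at chr8:70698255-70699146. The −log10 p was 3.24 and 5.62, with summits at −180 and −311 bp and a rank of 409. RefSeq starts *Jund* at −1210 bp from the single GENCODE TSS, which would place these summits within the transcript. *Jun* had a REV-ERBα peak in replicate 2 alone, at −1260 bp with a −log10 p of 2.97, and the nearest region in both replicates was 1980 kb away. The JUN genes therefore ran from a region at *Junb* of nearly equal strength in the replicates to a peak at *Jun* in a single list.

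*Egr1*, which encodes a zinc finger transcription factor, had a REV-ERBα region at chr18:34860206-34861129 with a −log10 p of 3.68 and 6.46. The summits were 3 bp apart, at −378 and −375 bp from the downstream TSS, in the 5′ untranslated exon of the longer transcript. No REV-ERBα peak was listed in either replicate at *Atf3*, which encodes a stress-induced bZIP factor of the ATF/CREB family, or at *Ier2*, which encodes a nuclear protein induced in the early response. The nearest REV-ERBα regions had their summits 262 kb from *Atf3* and 72.9 kb from *Ier2*.

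**Figure D1:**
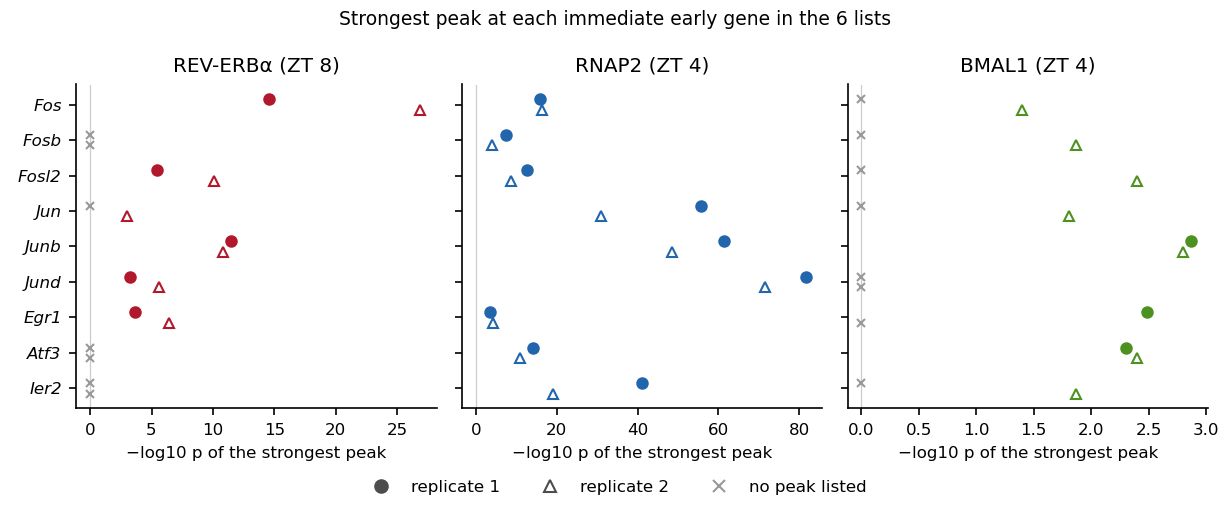
The strongest −log10 p (horizontal axis) of each gene in each list, with filled circles for replicate 1, open triangles for replicate 2 and grey crosses where no peak was listed. REV-ERBα was highest at *Fos* (14.54 and 26.88), RNAP2 at *Jund* (81.75 and 71.46), and no BMAL1 peak exceeded 2.87; the 3 horizontal axes differ in range.

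The 5 genes had a REV-ERBα region that reached within 1 kb of a TSS, as did 2.00% of all genes, although at *Junb* this held for the edge of the region and not for its summits. Among the 6701 genes with an RNAP2 region in the same distance, 5.42% also had a REV-ERBα region, and in the wider window 8.50% of 9027 genes with RNAP2 did. Of the 1337 genes with an RNAP2 region of −log10 p of at least 10 in both replicates, 19.1% had a REV-ERBα region and 13.6% a BMAL1 region. The share of genes with REV-ERBα was thus higher among genes with strong RNAP2, and 6 of the 9 immediate early genes belonged to them, 3 of which (*Fos*, *Junb* and *Jund*) had a REV-ERBα region. The part of RNAP2 strength in the count of 5 genes was not tested. With a q-value of 0.05 required in both replicates, a REV-ERBα region was left at 2 of the 9 genes, *Fos* and *Junb*. The share of all genes at that threshold is not given here, so nothing is read from this count. Counted per list, a REV-ERBα peak was present at 5 genes in replicate 1 and 6 in replicate 2, against 38.7% and 40.1% of all genes. In density, the windows of the 9 genes held 2.98 and 3.83 REV-ERBα peaks per 100 kb, against 1.23 and 1.32 over all genes. RNAP2 density was also higher there, at 10.2 and 13.2 peaks per 100 kb against 4.44 and 7.19. The windows differed in size, with a median of 21022 bp for the 9 genes and 30206 bp for all genes. The part of window size in these densities was not tested.

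RNAP2 was present in both replicates at 9 of 9 genes, and at 41.1% of all genes. Within 1 kb of a TSS the counts were 9 of 9 and 30.5%. At *Fosb* this held for the edge of the region and not for its summits, 1098 and 1069 bp from the nearest TSS. In single lists every one of the 9 genes had an RNAP2 peak in replicate 1 and in replicate 2, against 76.9% and 86.5% of all genes. Since whole muscle was used, polymerase at a gene in fewer cells and less polymerase per cell cannot be told apart.

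The strength of RNAP2 differed widely among the JUN genes, FOS genes and the rest. *Jund* had a −log10 p of 81.75 and 71.46 and ranked 7 of 10752 RNAP2 regions. *Junb*, with 61.46 and 48.48, ranked 22. *Jun*, with 55.62 and 30.98, ranked 80, so that the 3 JUN genes lay above the other members in both lists. *Ier2* came next with 41.18 and 18.98, at rank 237, and its range over the replicates overlapped that of *Jun* but not those of *Junb* and *Jund*.

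*Fos* had an RNAP2 −log10 p of 15.78 and 16.43, with a rank of 359. *Atf3* had 14.19 and 10.98, at the downstream group of its start sites and not at the TSS that opens its longest transcript. *Fosl2* had 12.64 and 8.75. The replicates of *Fos* lay above those of *Atf3* and *Fosl2*, whose own ranges overlapped. *Fosb* had 7.49 and 3.97, and *Egr1* had 3.45 and 4.27 at its downstream TSS and 2.49 and 3.91 at its upstream TSS. The replicates of *Fosb* and *Egr1* overlapped, and their order was not resolved. The median strength was 15.78 for the 9 genes and 4.47 for the 9027 genes with an RNAP2 region.

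In position, RNAP2 summits lay within 34 bp of the GENCODE TSS at *Ier2* (34 and 8 bp downstream) and closer at *Jund* (12 and 3 bp). *Junb* had summits 27 and 30 bp downstream, *Jun* 5 and 37 bp downstream and *Fos* at −22 and 33 bp. RNAP2 thus sat at the start of these 5 genes. *Egr1* had summits at 9 and −7 bp from its downstream TSS, *Atf3* at 89 and 107 bp, and *Fosl2* at 240 and 128 bp from its first TSS. *Fosb* was the exception, with summits 1549 and 1520 bp downstream of its first TSS, inside the gene, and no RNAP2 peak within 1 kb of that TSS in either list.

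Listed RNAP2 peaks covered 71.2% and 32.0% of the *Jund* gene in replicates 1 and 2, and 55.8% and 9.56% of *Jun*. For *Ier2* the cover was 16.6% and 43.8%, and for *Junb* 7.20% and 32.8%. Replicate 1 was higher at *Jund* and *Jun* and replicate 2 at *Ier2* and *Junb*, so the cover of a gene was not stable between the lists. Across the 9 genes the medians were 7.20% and 9.56%, and across all genes with an RNAP2 region 1.81% and 3.70%, and a peak of a given width covers more of a short gene.

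**Figure D2:**
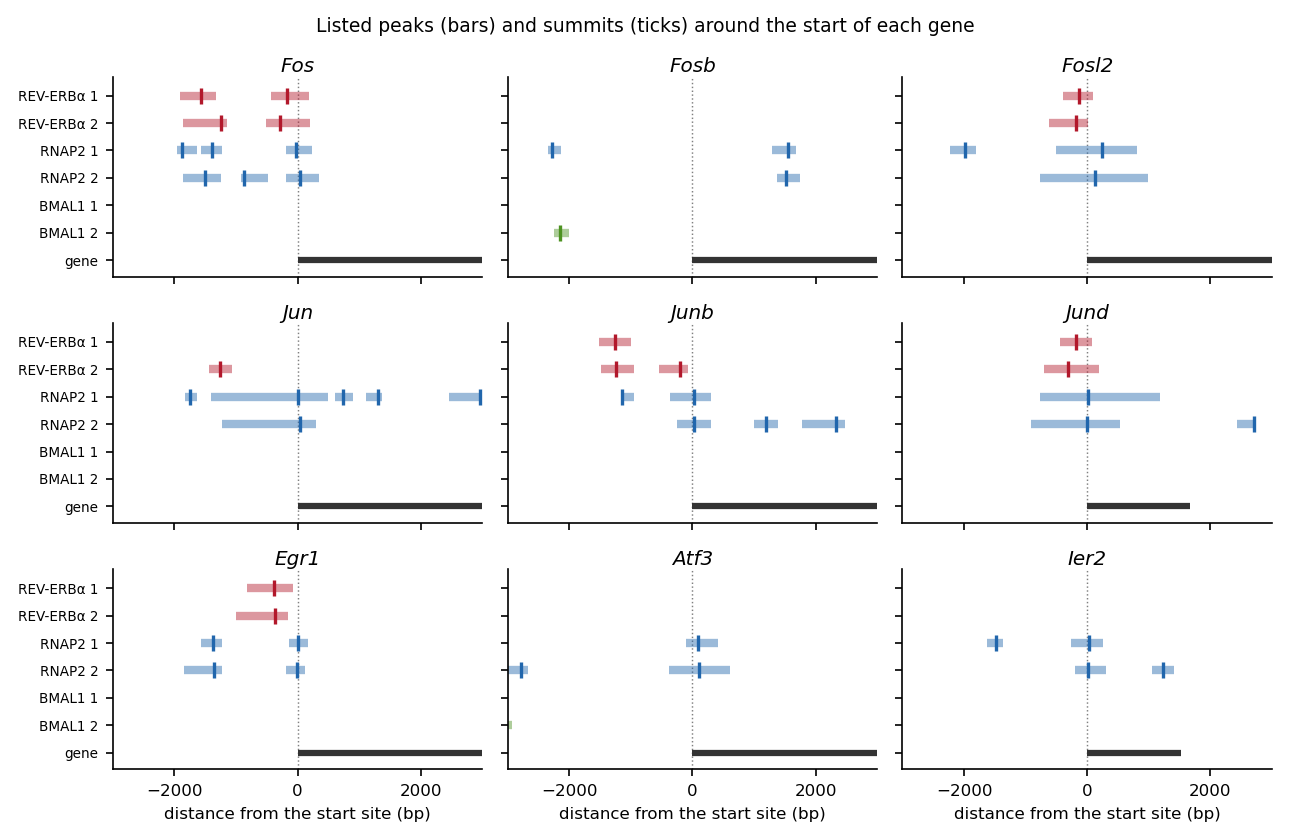
Listed peaks (bars) and their summits (ticks) within 3 kb of the start of each gene, in bp on the strand of the gene, 1 row for each list, with the gene as a dark bar. For *Egr1* and *Atf3* the start is the downstream TSS with RNAP2; REV-ERBα summits shared by the replicates lie upstream of the start at *Fos*, *Fosl2*, *Junb*, *Jund* and *Egr1*, and *Fosb* has RNAP2 only away from the start.

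The REV-ERBα regions overlapped an RNAP2 region at 4 of 9 genes, *Fos*, *Fosl2*, *Jund* and *Egr1*, against 2.45% of all genes. At all 4 promoters the mean REV-ERBα summit lay upstream of the mean RNAP2 summit. The position of REV-ERBα minus that of RNAP2 was −228.5 bp at *Fos*, −253.0 bp at *Jund*, −337.5 bp at *Fosl2* and −377.5 bp at *Egr1*. At the upstream region of *Fos* it was 39.5 bp, with REV-ERBα nearer to the gene. Over the 277 REV-ERBα regions within 1 kb of any coding TSS that overlapped an RNAP2 region, the REV-ERBα summit was upstream in 54.2%, with a median of −45.5 bp. With or without RNAP2, 363 REV-ERBα regions lay within 1 kb of a coding TSS. Their summits had quartiles of −177.8 and 78.8 bp from the TSS and a median of −34.0 bp. The replicate summits of the 4 REV-ERBα regions were 3 to 131 bp apart, less than the offset from RNAP2 at each gene. Where the summits of both factors had to lie within 250 bp, 2 of the 4 genes were left, with no share of all genes given for this rule.

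**Figure D3:**
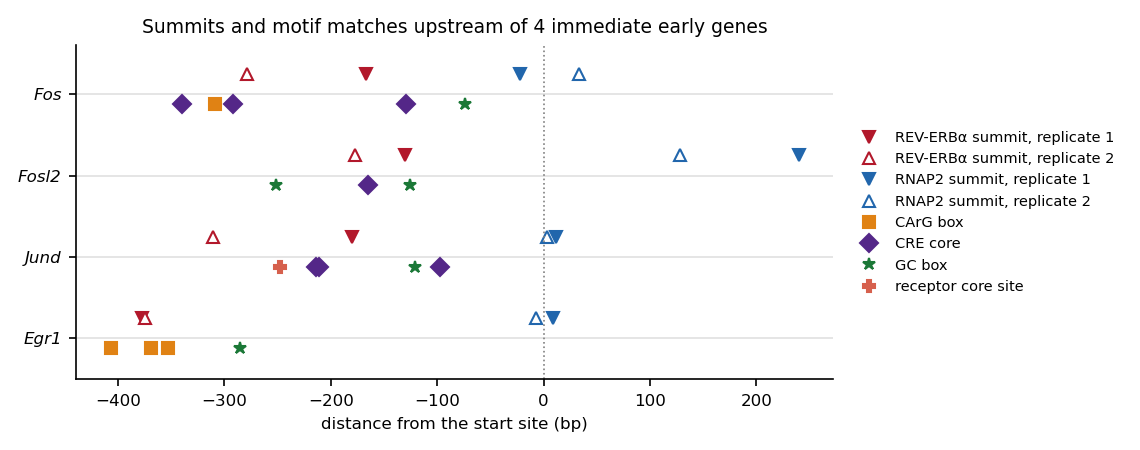
Replicate summits of REV-ERBα (red) and RNAP2 (blue), and motif matches within 100 bp of a REV-ERBα summit (lower symbols of each row), by distance from the start in bp at 4 genes. REV-ERBα summits lie between −378 and −130 bp and RNAP2 summits between −22 and 240 bp, and CArG boxes are drawn at *Fos* and *Egr1*.

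Exact matches to 10 motifs were counted within 100 bp of the summits, on both strands, in the 6 REV-ERBα regions of the 5 genes. Only 28.7% of all REV-ERBα regions lay within 1 kb of a coding TSS, so shares over all regions are not matched for promoter position. A CArG box (CC, 6 A or T, GG) was present in 2 of the 6 regions, at *Fos* and *Egr1*, and in 1.98% of all 1263 REV-ERBα regions. *Egr1* held 3 of them, with first bases at −407, −369 and −353 bp from its TSS, around the summits at −378 and −375. *Egr1* had another pair, at −105 and −83 bp, within 100 bp of an RNAP2 summit. In the 300 bp upstream of the start a CArG box was present at *Fosb* and *Egr1*, against 1.57% of all genes. For *Egr1* and *Atf3* this start was the downstream TSS with RNAP2. The share of all genes was read from the outermost start of each gene, so count and share are not fully alike. *Fosb*, with its CArG box at −266, had no REV-ERBα peak.

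The CRE core TGACG was present in 3 of the 6 regions, at *Fos*, *Fosl2* and *Jund*. Its share was 15.1% of all REV-ERBα regions and 24.8% of RNAP2 regions. The full CRE, which contains the core on both strands, was matched at *Jund* alone of the 6 regions, at −214 bp. It was present in 1.27% of all REV-ERBα regions. Upstream of the start, within 300 bp, the core was found at 7 of 9 genes (all but *Jun* and *Atf3*), against 21.1% of all genes. The full CRE was found at *Jund* and *Ier2*, against 2.03%. *Egr1* and *Atf3* were again read from the downstream TSS, and all genes from their outermost start. The CRE of *Ier2*, at −45 to −38, lies within 100 bp of its RNAP2 summits. A CRE was thus also present where no REV-ERBα peak was listed.

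A GC box (GGGCGG) was present in 5 of the 6 regions, all but that of *Junb*, against 21.9% of REV-ERBα regions and 42.6% of RNAP2 regions. Within 50 bp of the summits it was present in 1 of the 6 regions, at *Fosl2*, against 14.3% of all REV-ERBα regions. CCAAT was matched at *Junb*, *Jund* and *Egr1* (39.1% of REV-ERBα regions), and in 1 region within 50 bp. The nuclear receptor core site (AGGTCA or GGGTCA), the part of a REV-ERB response element that is searched most simply, was present in 2 of the 6 regions, the upstream region of *Fos* and that of *Jund*, against 30.9% of all REV-ERBα regions. It was not matched within 100 bp of the summits at the *Fos* promoter, *Fosl2*, *Junb* or *Egr1*. None of the 6 regions held an E-box (CACGTG, 6.18% of REV-ERBα regions), an AP-1 site (TGAGTCA or TGACTCA, 6.33%), an EGR site (GCGTGGGCG or GCGGGGGCG, 1.66%) or TATAAA (19.8%) in that distance. A match or its absence concerns these letters in these windows only.

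BMAL1 was listed at these genes only in weak peaks that the replicates did not share. A region in both replicates was present at 0 of 9 genes and at 6.81% of all genes. Replicate 1 had a peak at 3 genes, *Junb* (2.87), *Egr1* (2.48) and *Atf3* (2.30), against 38.2% of all genes. Replicate 2 had 14 peaks at 7 genes, with −log10 p from 1.36 to 2.80, against 84.4% of all genes, so that the shares stood near those of all genes. None of these BMAL1 peaks reached a q-value of 0.05. With a single BMAL1 list in place of both, the count was 7 genes without replicate 1 and 3 without replicate 2. Sites found in 3 or more of the 4 lists of BMAL1 and REV-ERBα were present at 0 of 9 genes, against 1.62% of all genes. At such background shares a count of 0 among 9 genes is no result about them. For comparison, 11 of 11 clock genes had BMAL1 in both replicates and 9 of 11 had REV-ERBα.

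Windows differ in what else they hold. That of *Junb* contains starts of *Prdx2* and *Rnaseh2a*, and an RNAP2 peak of replicate 1 with a −log10 p of 8.34 lay at −24 bp from a *Prdx2* start. *Jun* has an antisense transcript, *Junos*, at its promoter, and ChIP-seq peaks carry no strand. The REV-ERBα and RNAP2 regions described above had the respective immediate early gene as the nearest coding gene.

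**Figure D4:**
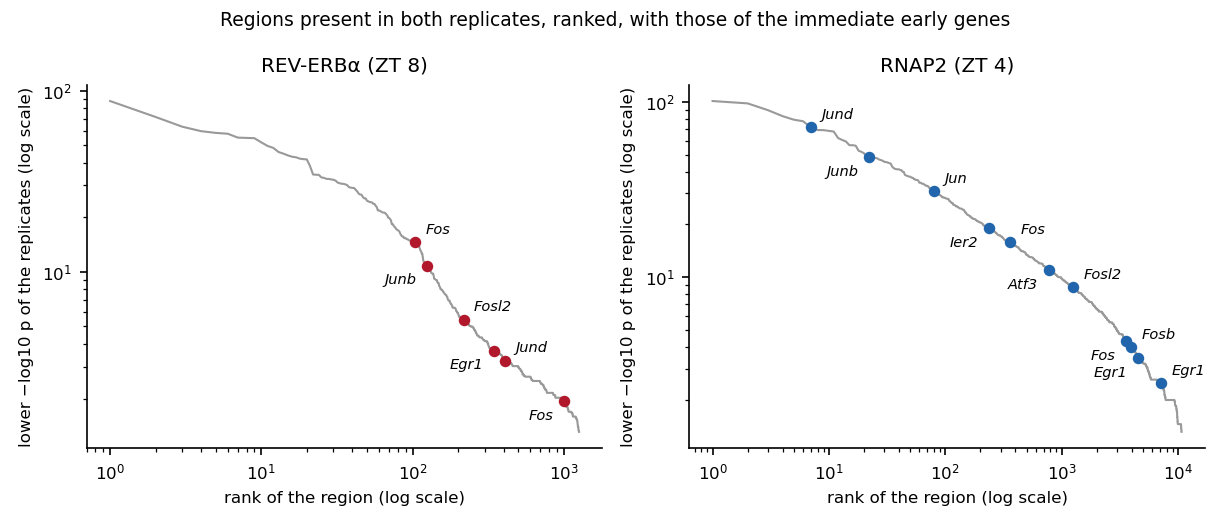
All REV-ERBα (left) and RNAP2 (right) regions present in both replicates, in order of strength (grey line, both axes on a log scale), with the regions of the immediate early genes as points. REV-ERBα regions of the group run from rank 104 to 1006 of 1263 and RNAP2 regions from rank 7 to 7156 of 10752.

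The order of the genes differed between the factors. By gene, *Fos* held rank 166 of the 975 genes with a REV-ERBα region, followed by *Junb* (194), *Fosl2* (309), *Egr1* (424) and *Jund* (478). By RNAP2, *Jund* held rank 7 of 9027 genes, *Junb* 29, *Jun* 113, *Ier2* 318 and *Fos* 492. *Jund*, first of the group by RNAP2, was thus last of the 5 genes by REV-ERBα, where its replicates overlapped those of *Egr1*, and *Jun* and *Ier2* had strong RNAP2 without a REV-ERBα region. The median REV-ERBα strength was 5.45 for the 5 genes and 3.18 for the 975. Over the 6 lists, the genes whose strongest peaks within 1 kb of a TSS were most like those of *Fos* were *Rnasek*, *Slbp* and *Frmd6*, at Euclidean distances of 0.88, 0.99 and 1.03 on the log2(1 + −log10 p) scale. Of the other members, *Fosl2* was nearest, at 2.04, and *Fosb* farthest, at 6.55.

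Other immediate early genes were counted by the same window. Of 24, which include the *Egr*, *Nr4a* and *Klf* families, 19 had an RNAP2 region, with a median strength of 9.16 over all 24. A REV-ERBα region was present at 2 of the 24 and a BMAL1 region at 0, beside 4.44% and 6.81% of all genes. Among all genes with RNAP2 the REV-ERBα share was 8.50%, and nothing is read from these counts. *Dusp1*, which encodes a MAP kinase phosphatase, had a REV-ERBα −log10 p of 2.64 and 3.11 beside an RNAP2 −log10 p of 57.34 and 37.39. *Zfp36*, which encodes an mRNA-destabilizing protein, had a REV-ERBα −log10 p of 2.53 and 2.53 with summits 2760 and 2959 bp downstream of its TSS. The strongest REV-ERBα regions of *Fos*, *Fosl2*, *Junb*, *Jund* and *Egr1* had a higher −log10 p in each replicate than those of *Dusp1* and *Zfp36*, but the upstream region of *Fos* did not. Of 14 other AP-1 and partner bZIP genes, 11 had RNAP2 and 1 had REV-ERBα. It was *Atf4*, the effector of the integrated stress response, with a REV-ERBα −log10 p of 5.49 and 3.61.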

How the data were processed

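Reads were mapped by the authors with BWA to the mm10 build (GRCm38), freed of duplicates and of reads with several positions, and reduced to like numbers per replicate before MACS2 2.1.1 called peaks on every sample with input DNA as background (p-value of 0.05). The −log10 p and −log10 q that the authors deposited belong to the peak summit, as does the deposited fold enrichment, the ratio of signal to local background. The deposited score was not used. Input reads and signal tracks were not analysed here. Whether replicates were single animals or pools is not given in the sources used here. Lists were compared in Python 3.11.15 with numpy 2.4.6, and plots were drawn with matplotlib 3.10.9. Overlap functions were tested on simulated data. Gene starts came from GENCODE M21, and motifs were read from GRCm38.p6, which was identical to 7 of 7 RefSeq promoter entries of these genes. The members, gene lists and motifs were chosen with earlier results of these data known, so counts over the 9 genes are not independent evidence. Named beyond the members were listed genes with a REV-ERBα region, neighbouring genes, and the 3 genes most like *Fos*. Alternatives were stricter thresholds, equal list lengths, other windows and overlap rules, and leaving out each replicate.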

Additional observations from a re-analysis of the deposited data

How the results depend on the processing

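Where each peak had to reach a −log10 q of 1.3, 2 genes kept a REV-ERBα region (*Fos* and *Junb*) and 1 kept it over an RNAP2 region (*Fos*), while with a −log10 p of at least 3 the counts were 5 and 4 as before. With REV-ERBα and RNAP2 summits required to lie within 250 bp, 2 genes had overlapping regions in place of 4. Shares of all genes under these settings are not given here. The count of genes with BMAL1 was 3 to 7 with a replicate left out, in place of 0. Within 50 bp of a summit, GC boxes, CCAAT boxes and receptor core sites were each matched in 1 REV-ERBα region of the 6. Their shares over all REV-ERBα regions were 14.3%, 22.8% and 18.5%. Within 200 bp, AP-1 sites, EGR sites and TATA boxes were each matched in 1, in place of 0. The shares over all REV-ERBα regions were then 9.98%, 3.33% and 31.4%. The cause of these shifts was not tested, beyond the size of the windows. The counts of RNAP2, and of REV-ERBα under the other windows, overlap rules, list lengths and left-out replicates, stayed within 1.5 times their values. The rank of the *Fos* region was 59 without REV-ERBα replicate 1, in place of 104. No paired analysis was possible because the results come from no test.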

Other observations

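Among 13 genes that encode activators of immediate early promoters (serum response factor, its ternary complex and MRTF partners, CREB-family proteins, their coactivators and MAP kinases), 11 had an RNAP2 region, with a median strength of 6.84 over all 13. REV-ERBα was present in both replicates at 1 of them, *Ep300*, which encodes a histone acetyltransferase, with a −log10 p of 3.32 and 3.47 and summits 48 and 392 bp downstream of the TSS. BMAL1 was present in both replicates at 2 of the 13, both more than 10 kb from a TSS. Of all genes, 41.1% had RNAP2, 4.44% REV-ERBα and 6.81% BMAL1, and nothing is read from these counts.

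Muscle fibre genes, all with an RNAP2 strength above 10, were set beside the immediate early genes, of which 6 of 9 were that strong. Of 10 fibre genes, 10 had a REV-ERBα region and 9 a BMAL1 region in both replicates. Of the 9 immediate early genes, 5 had REV-ERBα and 0 had BMAL1, where 6.81% of all genes had BMAL1 and a count of 0 among 9 is no result. REV-ERBα was present at 4.44% of all genes. Among the 1337 genes with an RNAP2 −log10 p of at least 10 in both replicates, 19.1% had REV-ERBα and 13.6% had BMAL1. At *Acta1*, which encodes skeletal muscle actin, the REV-ERBα −log10 p was 19.57 and 21.16, with summits 3448 and 3586 bp downstream of the TSS, past the promoter. At *Fos* the summits lay upstream of the gene, at −167 and −279 bp. The difference between the lists was not tested.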
